A study of Mus musculus with 15 samples.

Results

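Monocyte-derived macrophages (MDM) sorted from mouse gliomas as lipid-laden were compared with MDM sorted from the same kind of tumour as not lipid-laden. The libraries were chosen by title: 3 lipid-laden MDM libraries (numbers 224, 221 and 718) and 4 non-lipid-laden MDM libraries (numbers 224, 221, 431 and 718), 7 of the 15 libraries of the series. The other 8 libraries were microglia, 4 lipid-laden and 4 not, and serve here as a reference. Of 55486 genes in the table, 14843 passed a filter on low counts and were tested. All 15 libraries came from brain tumours of the genotype Ink4a/ArfKO, PDGFB: the mice lacked the Ink4a/Arf tumour suppressor locus, and PDGFB, a growth factor, was expressed from Nestin-positive progenitor cells to drive the tumours. How lipid load was stained and gated is not given in the sources used here, nor are treatment and age. The titles write each number after the tag mn:, with 224, 221, 431 and 718 used in the microglial groups too, and do not explain it. Nothing in the labels says that libraries of a group came from separate animals, so p-values measure the spread between these samples, which may be technical.

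As background, a macrophage becomes lipid-laden when it takes up more lipid than it burns or exports and stores the surplus as esters in droplets coated by perilipins. Lipid from dead cells, myelin and lipoproteins enters through scavenger and phagocytic receptors, is digested in lysosomes, and leaves as cholesterol through the transporters ABCA1 and ABCG1, which the liver X receptors (LXR) induce. Cells with ample sterol lower their own cholesterol synthesis through the transcription factor SREBP2. MDM arise from blood monocytes that carry the chemokine receptor CCR2, while microglia are the resident macrophages of the brain.

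Total counts were 7798952 to 11419338 for the 4 non-lipid-laden and 9306839 to 10699235 for the 3 lipid-laden MDM libraries, and mitochondrially encoded RNA made up 0.442 to 0.657% and 0.477 to 0.725% of them. The pan-leukocyte gene Ptprc and the macrophage genes Csf1r, Adgre1 and Itgam were expressed in all 7. Ccr2, the chemokine receptor that brings monocytes into tissue, was at 290.1, 186 and 169.5 CPM (counts scaled to the library's TMM-adjusted size) in lipid-laden MDM libraries 224, 221 and 718, against 0 to 6.43 CPM in lipid-laden microglia. The lipid-laden MDM libraries thus carried a monocyte marker far above the microglial level, and on this marker their label was not contradicted. The microglial markers P2ry12, Tmem119 and Sall1 averaged 70.0%, 73.8% and 40.2% of their lipid-laden microglial means in lipid-laden MDM. In non-lipid-laden MDM these shares were 21.2%, 25.3% and 6.84%. On the first principal component of all genes, with 36.2% of the variance, lipid-laden MDM libraries were at 7.96 to 35.9, apart from non-lipid-laden MDM at 111 to 127 and from microglia, which were at -60.4 or below. Lipid-laden library 221 stood apart from the other MDM libraries on the second component (-67.4), and lipid-laden microglial library 221 did so among microglia (-119). Number 221 was also lowest on it in non-lipid-laden MDM (-15.5) and non-lipid-laden microglia (-29.2), and thus in every group. A call of a named gene between the MDM groups that was lost without number 221 is given beside that gene.

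Lipid-laden MDM differed from non-lipid-laden MDM in 1213 of 14843 genes (8.17%) at an edgeR adjusted p under 0.05, the threshold for every call below. Higher expression was called for 773 genes (5.21%) and lower expression for 440 (2.96%), and 580 and 283 of these differed at least 2-fold. The log2 fold change (lipid-laden minus non-lipid-laden) had a median of 0.04 over all genes tested, 1.53 over the genes called higher and -1.24 over those called lower. In 725 of the 773 genes called higher, all 3 lipid-laden libraries lay above all 4 others, which held for 11.1% of all genes tested. For 429 of the 440 called lower they lay below all 4 others, against 10.7% of all genes. Lysosomal, complement, lipid-uptake and efflux genes, microglial markers and cell cycle genes made up groups in which many members rose. Monocyte and dendritic cell markers, class II antigen presentation genes and several sterol synthesis genes were among those that fell. The split of directions moved with the fit: limma-voom called 713 higher and 747 lower, and a fit of the 7 MDM libraries alone 569 and 607. Without lipid-laden library 718 the count fell to 657, and without non-lipid-laden library 224 to 800.

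**Figure D1:**
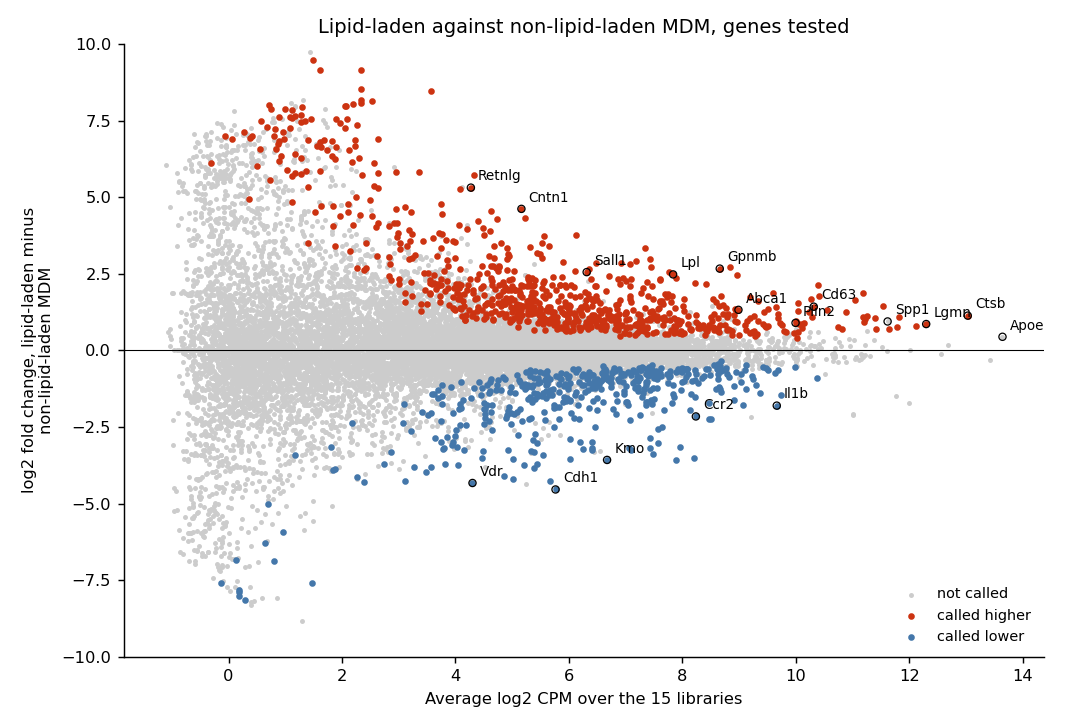
Each point is 1 of the 14843 genes tested. The horizontal axis is the average log2 CPM over the 15 libraries and the vertical axis the log2 fold change of lipid-laden over non-lipid-laden MDM, with 773 genes called higher in red, 440 called lower in blue and genes not called in grey. Ctsb, at a log2 fold change of 1.13, is the called gene of highest expression that rose.

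Markers that tell microglia from MDM moved with lipid load, and this bears on most groups below. Of 24 homeostatic microglia genes 19 rose and none fell in lipid-laden MDM (median log2 fold change 1.57, against 0.04 over all genes, of which 5.21% rose and 2.96% fell). Members of this and the other lists were chosen with earlier results of these data known. An excess of a list over all genes may in part come from that choice. Tmem119, a membrane protein of resting microglia (ENSMUSG00000054675, chromosome 5, 113793729 to 113800516, positions on mm10 here and below), was at 935, 712 and 1135 CPM in lipid-laden libraries 224, 221 and 718 and at 204, 243, 432 and 393 CPM in non-lipid-laden libraries 224, 221, 431 and 718 (log2 fold change 1.54 with SE 0.32, edgeR adjusted p = 0.00679). Likewise P2ry12, a purinergic receptor by which microglia sense injury, was at 541, 476 and 447 against 129, 124, 162 and 175 CPM (log2 fold change 1.73 with SE 0.31, edgeR adjusted p = 0.00282). The groups did not overlap for either gene. Sall1, a transcription factor of microglial identity, was at 40.2, 49.7 and 43.0 against 3.83, 7.35, 9.11 and 9.87 CPM (log2 fold change 2.55 with SE 0.32, edgeR adjusted p = 0.000223), and at 77.5 to 175 CPM in lipid-laden microglia. Its mean was thus 40.2% of that in lipid-laden microglia in lipid-laden MDM and 6.84% in non-lipid-laden MDM. Its relative Sall3 rose by 3.50 (SE 0.53).

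Summed over the list, microglia genes came to 14485 to 19698 CPM in lipid-laden MDM, 8289 to 9963 CPM in non-lipid-laden MDM and 14476 to 33028 CPM in lipid-laden microglia. As a share of the lipid-laden microglial mean, this was 59.6 to 81.1% and 34.1 to 41.0% for the MDM groups. Of 28 MDM markers 11 fell and none rose (median -1.19), against 2.96% and 5.21% of all genes tested. Their sum was 8354 to 9645 CPM against 11627 to 12049 CPM, with 3387 to 5543 CPM in lipid-laden microglia. Ccr2 was at 290.1, 186 and 169.5 against 1269.7, 780.3, 753 and 1035 CPM, and the groups did not overlap (log2 fold change -2.16 with SE 0.56, edgeR adjusted p = 0.0272). Its call was lost without lipid-laden library 224, 221 or 718 or non-lipid-laden library 224 or 718 (adjusted p 0.0547 to 0.122), and without number 221 in every group (0.0666). Plac8 (-3.19, SE 0.44), S100a11, a calcium-binding protein (-2.02, SE 0.39), and the interferon-induced membrane protein genes Ifitm6 (-3.41, SE 0.45) and Ifitm3 (-1.17, SE 0.19) also fell, where reads shared between the near-identical Ifitm genes were not set apart. Itga4, the integrin used to tell the origins apart, was at 55.0, 24.6 and 29.2 against 114, 63.8, 50.4 and 73.8 CPM and was not called (log2 fold change -1.06 with SE 0.93, edgeR adjusted p = 0.561). Microglial RNA within the MDM sort and expression of these genes by MDM cannot be told apart in bulk libraries, nor can fewer cells of a type from less RNA per cell, and the part of either in the results below was not tested. The count of MDM markers called lower fell to 7 without lipid-laden library 224 or 718 and to 6 without lipid-laden library 221.

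**Figure D2:**
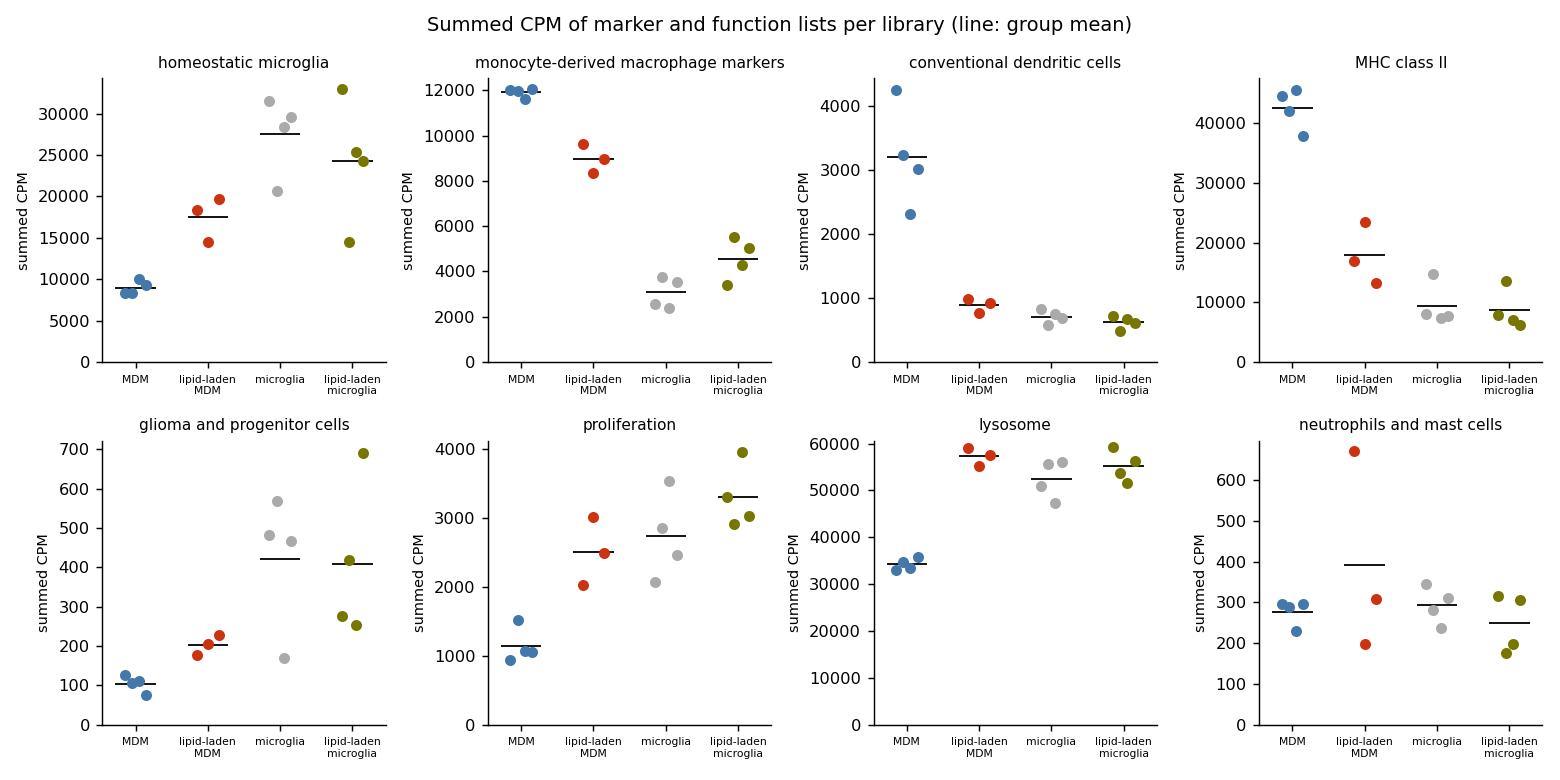
Each panel gives the summed CPM of 1 gene list, on a linear axis from 0, for every library in the 4 groups (points), with the group mean as a line. For the homeostatic microglia genes the lipid-laden MDM libraries (14485 to 19698 CPM) lie above non-lipid-laden MDM (8289 to 9963 CPM), and for the lysosome genes they lie within the range of lipid-laden microglia.

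The label of lipid load was read first in the droplet coat genes. Plin2, the perilipin that coats droplets in macrophages (ENSMUSG00000028494, chromosome 4, 86648386 to 86670060), was at 1522, 1149 and 1608 CPM in lipid-laden MDM libraries 224, 221 and 718 and at 752, 702, 632 and 977 CPM in the 4 non-lipid-laden libraries. All 3 lipid-laden values lay above the 4 others (log2 fold change 0.90 with SE 0.24, edgeR adjusted p = 0.0313), but the call was lost without lipid-laden library 224 or 718 or non-lipid-laden library 224, 221 or 431 (adjusted p 0.0681 to 0.126), and without number 221 in every group (0.0661). Lipa, the lysosomal acid lipase that frees cholesterol and fatty acids, was at 914, 558 and 746 against 444, 357, 317 and 433 CPM (log2 fold change 0.93 with SE 0.20, edgeR adjusted p = 0.00983), and was not called without lipid-laden library 224 (adjusted p = 0.0634). These were the 2 called of 11 tested genes for droplet coat and lipolysis, of 18 listed (median 0.40). Hilpda, an inhibitor of droplet lipolysis that hypoxia induces, was at 200.3, 263 and 233 against 322, 358, 336 and 433 CPM and was not called (log2 fold change -0.64, edgeR adjusted p = 0.129). Among 16 enzymes of triglyceride and cholesteryl ester synthesis, 1 rose, the acyltransferase gene Agpat3 (1.41, SE 0.34), and 1 fell, its relative Agpat4 (-1.89, SE 0.44). The share called in either direction was near that of all genes tested (5.21% and 2.96%) and is not a result about the list. The call of Agpat3 was lost without lipid-laden library 224 or 718 or non-lipid-laden library 224, 221 or 718 (adjusted p 0.0502 to 0.0688), and in the fit of the 7 MDM libraries (0.0568), and that of Agpat4 without lipid-laden library 718 (adjusted p = 0.0826). Dgat1, which makes the final step to triglyceride, was at 65.6, 46.0 and 56.1 against 100.1, 79.4, 133 and 87.4 CPM without passing the test (log2 fold change -0.84, edgeR adjusted p = 0.0697).

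Receptors and binding proteins for lipid uptake rose in 9 of 20 tested genes and fell in 1 (median 0.76). Of all genes tested 5.21% rose and 2.96% fell. Lpl, the lipoprotein lipase that frees fatty acids from lipoproteins (ENSMUSG00000015568, chromosome 8, 68880491 to 68907448), was at 108, 187 and 155 against 21.6, 35.5, 36.0 and 14.8 CPM (log2 fold change 2.48 with SE 0.27, edgeR adjusted p = 7.91e-05). Trem2, a receptor for lipids and apoptotic cells (ENSMUSG00000023992, chromosome 17, 48346401 to 48354147), was at 751, 770.2 and 884 against 275, 344, 313 and 339 CPM (log2 fold change 1.33 with SE 0.16, edgeR adjusted p = 0.000163). No lipid-laden value of either gene fell within the non-lipid-laden range. The scavenger receptor gene Cd68 (0.76, SE 0.10) and Mertk, a receptor for apoptotic cells (1.22, SE 0.20), rose in the same libraries. Fabp5, a fatty acid chaperone, was at 116, 91.8 and 149 against 53.5, 76.3, 55.2 and 49.2 CPM (log2 fold change 1.02 with SE 0.23, edgeR adjusted p = 0.0116) and was not called without lipid-laden library 718 (adjusted p = 0.0798). Vldlr, a lipoprotein receptor, had 60 counts over the lipid-laden libraries and 0 over the others. With 3 counts assumed for the others in place of 0 it was 25.8-fold higher, and the lower 95% limit for counting error was 20.3-fold. The Vldlr call was lost without lipid-laden library 224 or 718 or non-lipid-laden library 224, 221, 431 or 718 (adjusted p 0.0526 to 0.0735), under limma-voom (0.128) and without number 221 in every group (0.0558). Cd36, the fatty acid translocase, was at 44.1, 213 and 30.0 against 47.5, 42.8, 13.1 and 22.5 CPM, with library 221 far above the other lipid-laden libraries, and was not called (log2 fold change 1.60 with SE 1.32, edgeR adjusted p = 0.525). Without lipid-laden library 718, 4 uptake genes were called higher, without lipid-laden library 224 5, and without non-lipid-laden library 224 6.

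Genes for cholesterol export followed the same direction. Abca1, which loads cholesterol onto apolipoproteins (ENSMUSG00000015243, chromosome 4, 53030787 to 53159895), was at 770.3, 420.1 and 699.7 against 253, 240.3, 258 and 256 CPM (log2 fold change 1.32 with SE 0.17, edgeR adjusted p = 0.000242), so that library 221 was the lowest of the lipid-laden values and still above the others. Abcg1, which exports cholesterol to mature lipoprotein particles (ENSMUSG00000024030, chromosome 17, 31057675 to 31117988), was at 1301, 982 and 1141 against 663, 567, 532 and 576 CPM (log2 fold change 0.97 with SE 0.16, edgeR adjusted p = 0.00144). Lpcat3, an LXR-induced phospholipid enzyme, rose by 0.95 (SE 0.21), and Npc1, which moves cholesterol out of the lysosome, by 1.14 (SE 0.18). In all, 6 of 19 efflux and LXR target genes rose and 1 fell (median 0.44), against 5.21% and 2.96% of all genes tested. The member that fell was Scd1, the stearoyl-CoA desaturase, at 9.52, 0.661 and 4.63 against 72.5, 31.6, 41.4 and 32.6 CPM (log2 fold change -3.17 with SE 0.94, edgeR adjusted p = 0.0495), a call lost without lipid-laden library 224, 221 or 718 or non-lipid-laden library 224, 221, 431 or 718 (adjusted p 0.0571 to 0.155), and without number 221 in every group (0.116). Apoe, the apolipoprotein that carries exported cholesterol, was at 19606, 14783 and 16286 against 12123, 12689.9, 12914 and 11949 CPM. Its lipid-laden values lay above those of all other 12 libraries, yet it did not pass the test (log2 fold change 0.44 with SE 0.16, edgeR adjusted p = 0.0957). Without non-lipid-laden library 221 or lipid-laden library 718 the count called higher was 4.

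**Figure D3:**
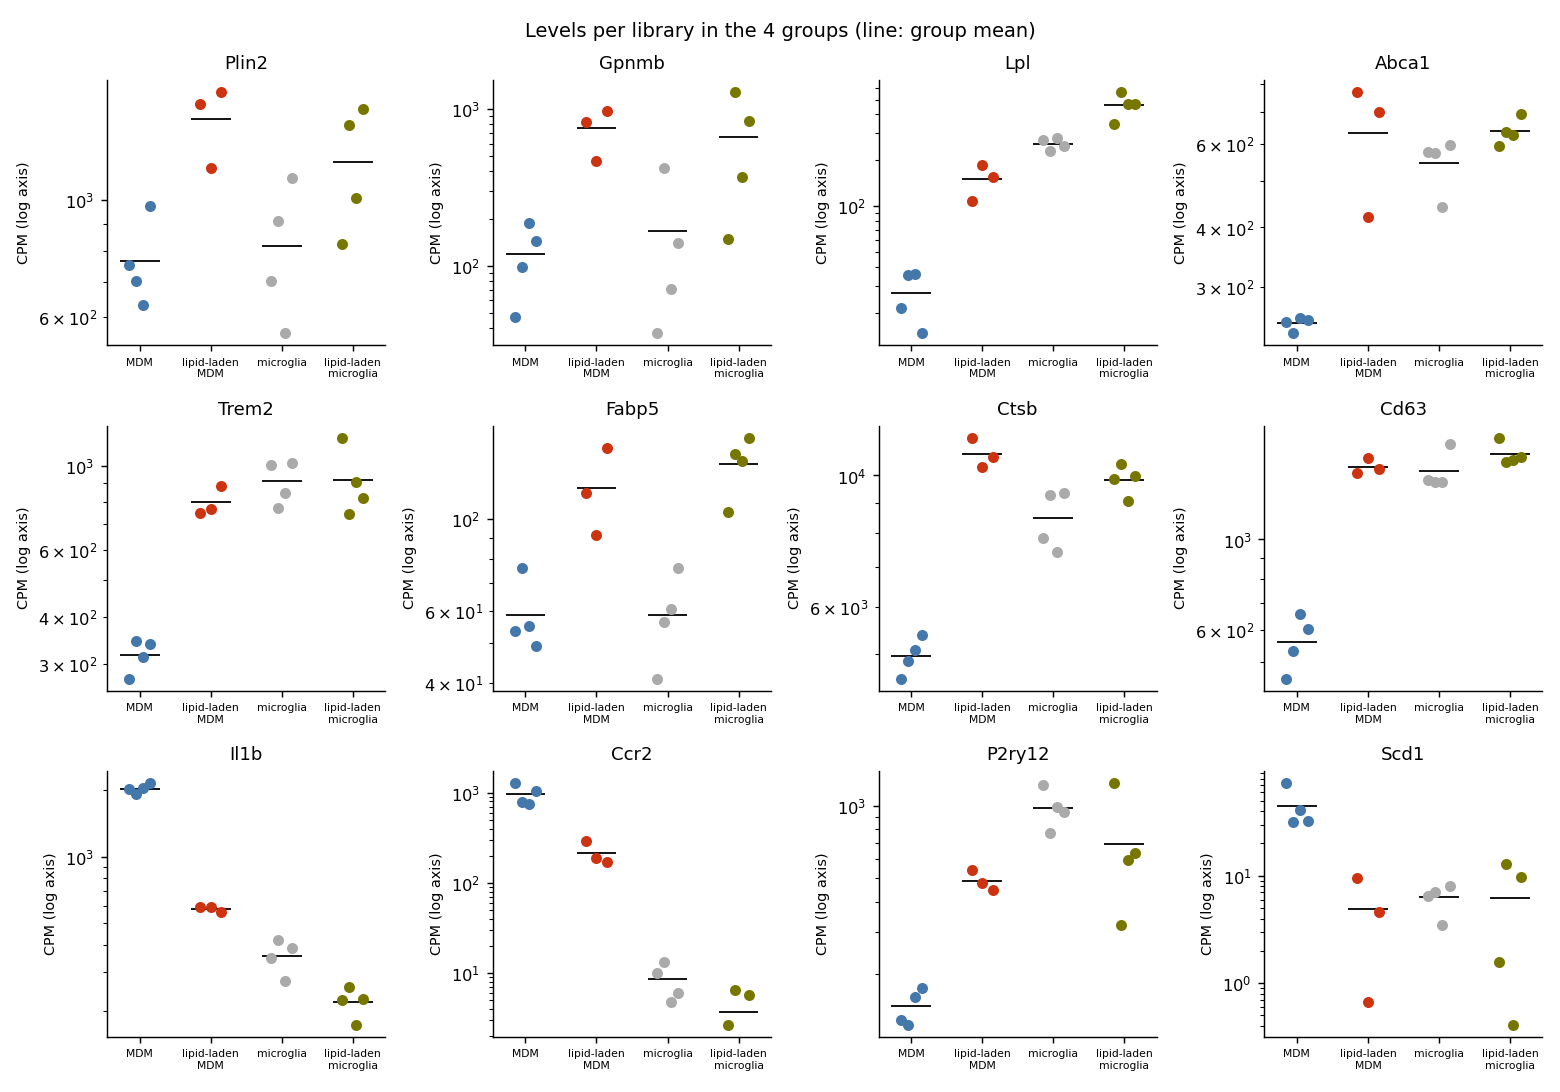
Each panel gives the CPM of 1 gene on a log axis for every library of the 4 groups (points), with the group mean as a line. Lipid-laden MDM lie above non-lipid-laden MDM without overlap for Plin2, Gpnmb, Lpl, Abca1, Trem2, Fabp5, Ctsb, Cd63 and P2ry12, and below them for Il1b, Ccr2 and Scd1.

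Lysosomal genes, the longest list, also had the most members that rose. Of 40 tested, 24 (60%) were called higher and none lower, against 5.21% and 2.96% of all genes. The share that rose was larger for homeostatic microglia (79.2%), cell cycle (66.7%) and lipid-associated and disease-associated macrophage genes (62.5%). All 40 lysosomal genes had a positive log2 fold change (median 0.79, against 0.04 over all genes). Ctsb, the lysosomal protease cathepsin B (ENSMUSG00000021939, chromosome 14, 63122462 to 63145923), was at 11588, 10331 and 10754 CPM in lipid-laden MDM libraries 224, 221 and 718 and at 4535, 4849.8, 5079 and 5378 CPM in the non-lipid-laden libraries (log2 fold change 1.13 with SE 0.11, edgeR adjusted p = 3.76e-05). The 3 values were thus above the 4 others with a wide gap. Cd63, a lysosomal tetraspanin (ENSMUSG00000025351, chromosome 10, 128900989 to 128912822), was at 1453, 1586 and 1488 against 455, 532, 655 and 603 CPM (log2 fold change 1.43 with SE 0.13, edgeR adjusted p = 3.76e-05), and Ctsl, cathepsin L, at 1449, 1739 and 1818 against 642, 717, 671 and 796 CPM (log2 fold change 1.24 with SE 0.13, edgeR adjusted p = 6.94e-05). Ctsz, cathepsin Z, rose by 0.75 (SE 0.12). Lgmn, the lysosomal protease legumain and not on the list, rose by 0.86 (SE 0.10). The lysosome list summed to 55166 to 58959.7 CPM in lipid-laden MDM, 33082 to 35849.5 CPM in non-lipid-laden MDM, 47317 to 55983 CPM in non-lipid-laden and 51675 to 59206 CPM in lipid-laden microglia. Lipid-laden MDM were therefore within the range of the lipid-laden microglia, and 2 of the 40 genes were higher in all 3 lipid-laden MDM libraries than in the other 12. Gm2a, a lysosomal ganglioside activator that was not on the list, fell: it was at 1478, 1191 and 1153 against 2668, 2297, 2423 and 2169.7 CPM (log2 fold change -0.91 with SE 0.14, edgeR adjusted p = 0.000828). The count called higher was 16 without lipid-laden library 224 and 17 without lipid-laden library 718.

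Many lysosomal genes carry a motif for the transcription factors TFEB and TFE3, so the promoters of the members that rose were searched. The motif searched was TCACGTGA, which reads the same on both strands and contains the shorter E-box CACGTG, in the RefSeq promoter table (GRCm38.p6, from 250 bases before to 50 bases after each gene's start). Of the 24 lysosomal genes called higher 19 had an entry, and 3 of these (15.8%) held it. The motif was present in 6 of 31 lysosomal genes tested (19.4%), in 233 of 10901 genes tested (2.14%) and in 304 of 27025 genes in the table (1.12%). Over the genes called higher of any kind it was present in 13 of 600 (2.17%), and over those called lower in 5 of 341 (1.47%). The match is a description of letters and no site was measured here. The windows around it are shown for the 3 members, 5′ to 3′ on the gene's strand with the motif in capitals, at chr16:44139358-44139417 (minus strand), chr2:164833734-164833772 (plus strand) and chr7:142387893-142387952 (minus strand), all GRCm38.p6.
Atp6v1a: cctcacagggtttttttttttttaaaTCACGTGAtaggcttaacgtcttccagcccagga
Ctsa: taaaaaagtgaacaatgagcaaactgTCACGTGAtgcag
Ctsd: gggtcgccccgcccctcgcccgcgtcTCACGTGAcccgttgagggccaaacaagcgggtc
The motif began 132, 13 and 99 bases before the start of Atp6v1a, Ctsa and Ctsd. Atp6v1a, a subunit of the proton pump that acidifies the lysosome, was at 529, 394 and 523 against 274, 306, 267 and 305 CPM (log2 fold change 0.74 with SE 0.17, edgeR adjusted p = 0.0129). Ctsa, the protective protein of the sialidase complex, was at 3267, 2686 and 3106 against 1852, 1749, 1941 and 1852 CPM (log2 fold change 0.71 with SE 0.12, edgeR adjusted p = 0.00142). Ctsd, the aspartyl protease cathepsin D, was at 3155, 2564 and 3378 against 679, 922, 1618 and 1185 CPM (log2 fold change 1.46 with SE 0.23, edgeR adjusted p = 0.000959). In each of the 3 genes every lipid-laden library lay above the non-lipid-laden range, and the Atp6v1a call was lost without lipid-laden library 224 or 718 (adjusted p 0.0619 to 0.0705).

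Genes of the lipid-associated and disease-associated macrophage states, described in fat, plaques and degenerating brain, rose in 15 of 24 and fell in 1 (median 1.08). Over all genes tested these shares were 5.21% and 2.96%. Of the 24 genes, 16 also stood on other lists here, the lysosomal ones among them. Gpnmb, a membrane glycoprotein of lipid-filled macrophages (ENSMUSG00000029816, chromosome 6, 49036546 to 49070929), was at 826, 464 and 981 against 47.1, 98.4, 186 and 144 CPM, with no overlap and a wide spread in both groups (log2 fold change 2.67 with SE 0.75, edgeR adjusted p = 0.0387). Its call was lost when any 1 of the 7 libraries was left out (adjusted p 0.0518 to 0.12). Cd9, a tetraspanin, was at 491, 691 and 657 against 301, 323, 376 and 419.97 CPM (log2 fold change 0.79 with SE 0.15, edgeR adjusted p = 0.0046). Spp1, osteopontin, was at 6010.00, 3533 and 5153 against 2381, 1975, 3031 and 2798 CPM and missed the threshold (log2 fold change 0.94 with SE 0.29, edgeR adjusted p = 0.0603), although its groups did not overlap. Lgals3, galectin-3, was at 811, 1021 and 822 against 681, 879, 717 and 693 CPM, with overlapping groups, and was not called (log2 fold change 0.25 with SE 0.29, edgeR adjusted p = 0.673). The count called higher ranged from 11, without lipid-laden library 718, to 17 over the alternative fits.

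Opsonins and receptors for dying cells rose in 12 of 22 tested genes and fell in 1 (median 1.01), against 5.21% and 2.96% of all genes. The C1q chains, which start the classical complement pathway, were among the 12 that rose: C1qa (1.09, SE 0.16), C1qb (0.80, SE 0.12) and C1qc, which was at 3732, 4091 and 3871 against 1499, 1996, 1926 and 1921 CPM (log2 fold change 1.09 with SE 0.13, edgeR adjusted p = 0.000188). Pros1, protein S, a bridging ligand of Mertk, was at 337, 506 and 293 against 117, 134, 89.7 and 136 CPM (log2 fold change 1.67 with SE 0.21, edgeR adjusted p = 0.000212). C4b, complement component 4, was at 86.0, 126 and 149 against 7.55, 28.8, 13.9 and 16.2 CPM (log2 fold change 2.86 with SE 0.40, edgeR adjusted p = 0.000452), and reads shared with its near-identical copy were not set apart. None of these genes overlapped between the groups, and in lipid-laden microglia C1qc was at 3775 to 5309.96 CPM and C4b at 97.9 to 181 CPM. Heme and iron genes moved with them. Hmox1, heme oxygenase 1 (ENSMUSG00000005413, chromosome 8, 75093621 to 75100589), was at 1246, 1248 and 1500.01 against 321, 411, 426 and 410.1 CPM (log2 fold change 1.76 with SE 0.17, edgeR adjusted p = 3.76e-05), and the iron exporter gene Slc40a1 at 174, 140.2 and 164 against 6.45, 17.8, 24.2 and 33.1 CPM (log2 fold change 2.97 with SE 0.38, edgeR adjusted p = 0.000242). Slc11a1, which carries iron out of phagosomes (1.20, SE 0.23), and Gclm, a subunit of the enzyme for glutathione synthesis (1.92, SE 0.39), rose too. Of 20 NRF2 and iron genes 5 rose and none fell (median 0.46), again against 5.21% and 2.96% of all genes.

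Cholesterol synthesis genes fell in 5 of 25 tested genes and none rose (median -0.58), and 3 of the 25 had a positive log2 fold change. Over all genes tested 2.96% fell and 5.21% rose. Cyp51, the lanosterol demethylase (ENSMUSG00000001467, chromosome 5, 4081145 to 4104746), was at 39.7, 54.4 and 38.2 CPM in lipid-laden MDM and at 122, 133, 131 and 122 CPM in non-lipid-laden MDM (log2 fold change -1.53 with SE 0.23, edgeR adjusted p = 0.000895). Pmvk, a kinase of the mevalonate pathway, was at 37.3, 59.2 and 56.2 against 114, 129, 132 and 148 CPM (log2 fold change -1.36 with SE 0.22, edgeR adjusted p = 0.00113). Srebf2, which encodes SREBP2, was at 11.5, 10.9 and 18.1 against 74.6, 54.1, 34.6 and 38.5 CPM (log2 fold change -1.90 with SE 0.39, edgeR adjusted p = 0.00686). The lipid-laden values of these 3 genes all lay below the non-lipid-laden range. They overlapped those of lipid-laden microglia, in which Cyp51 was at 18.7 to 41.8 CPM and Srebf2 at 8.34 to 20.4 CPM. Without non-lipid-laden library 224 or lipid-laden library 718, 3 genes of the list were called lower, as when number 221 was left out of every group, where Srebf2 was not called (adjusted p = 0.0523). Among 15 fatty acid synthesis genes 2 rose, Fads1, a desaturase (1.22, SE 0.28), and Mlxipl, which encodes the carbohydrate-sensing factor ChREBP (2.15, SE 0.44). Scd1 and Elovl5, an elongase (-1.21, SE 0.30), fell. The Fads1 call was lost without lipid-laden library 224 (adjusted p = 0.0634) and the Elovl5 call without lipid-laden library 221 or 718 or non-lipid-laden library 224 (adjusted p 0.0542 to 0.102). Of 23 fatty acid oxidation genes, Etfdh, which passes electrons to the respiratory chain, rose (0.99, SE 0.25) and Slc25a20, the mitochondrial acylcarnitine carrier, fell (-1.26, SE 0.23). Again these shares were near those of all genes, and Etfdh was not called without lipid-laden library 221 or 718 or non-lipid-laden library 718 (adjusted p 0.0591 to 0.0734).

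Cytokine genes moved in both directions. Il1b, the inflammatory cytokine interleukin 1 beta (ENSMUSG00000027398, chromosome 2, 129364570 to 129371139), was at 595, 590.1 and 562 CPM in lipid-laden and at 2028, 1910.2, 2044 and 2142 CPM in non-lipid-laden MDM (log2 fold change -1.80 with SE 0.16, edgeR adjusted p = 3.76e-05), with a spread within either group that was small beside the gap. The monocyte attractants Ccl2 (633, 931 and 761 against 271, 336, 217 and 338 CPM, log2 fold change 1.41 with SE 0.21, edgeR adjusted p = 0.000701) and Ccl12 (log2 fold change 1.43, SE 0.26) and Ccl3 (0.91, SE 0.18) rose. In all 5 of 27 cytokine and chemokine genes rose and 1, Il1b, fell (median -0.24). The count that fell was 2 in the fit of the 7 MDM libraries and without number 221 in every group, and the chemokine gene Ccl22, described below and not on the list, was also called lower. Of 21 immunoregulatory genes 3 rose and none fell (median -0.26), and no gene of this list was called without lipid-laden library 224. Of all genes tested 5.21% rose and 2.96% fell. The 3 were Sirpa, the receptor for the signal CD47 (0.81, SE 0.19), Vsir, the checkpoint protein VISTA (0.83, SE 0.20), and Entpd1, the ectoenzyme CD39 (0.74, SE 0.18). These calls were lost without lipid-laden library 224 (adjusted p = 0.071) for Sirpa, without lipid-laden library 224 or 718 or non-lipid-laden library 224 (adjusted p 0.0608 to 0.108) for Vsir and without lipid-laden library 224 or 718 (adjusted p 0.0747 to 0.0884) for Entpd1.

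Genes of class II antigen presentation fell in 5 of 13 and none rose (median -2.09). H2-DMb2, a chain of the DM chaperone that loads peptides (ENSMUSG00000037548, chromosome 17, 34143307 to 34151555), was at 72.9, 93.6 and 64.8 against 605, 733, 683 and 487 CPM (log2 fold change -3.02 with SE 0.33, edgeR adjusted p = 8.41e-05). H2-Oa, a chain of the DO modulator of loading, was at 33.5, 26.3 and 22.6 against 295, 145, 240.3 and 199 CPM (log2 fold change -3.00 with SE 0.32, edgeR adjusted p = 6.94e-05). The genes H2-Ob (-2.51, SE 0.31) and H2-DMb1 (-1.71, SE 0.25) fell as well, and reads shared among these related genes were not set apart. Summed over the list, class II genes came to 13303 to 23376 CPM against 37941 to 45549 CPM, and the highest lipid-laden value was that of library 221. The count that fell was 10 under limma-voom and without number 221 in every group, and 11 in the fit of the 7 MDM libraries alone. Class I genes gave 1 call of 18 (4 without number 221 in every group), H2-T23, which fell (-0.78, SE 0.18), a call lost without lipid-laden library 224 or 221 (adjusted p 0.0617 to 0.0651). In the main fit this class I count was near the share of all genes that fell (2.96%) and is not a result about the list. Interferon response genes fell in 3 of 28 (median -0.40), with Ifitm3, the exonuclease gene Isg20 (-1.66, SE 0.30) and Usp18, a brake on interferon signalling (-1.13, SE 0.28), the last not called without lipid-laden library 224 or 718 or non-lipid-laden library 224 or 718 (adjusted p 0.0522 to 0.0875).

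Markers of conventional dendritic cells fell in 10 of 18 and 1, the transcription factor gene Irf8, which macrophages also use, rose (median -3.12). Over all genes tested 2.96% fell and 5.21% rose. The Irf8 call was lost without lipid-laden library 224 or 718 or non-lipid-laden library 224, 431 or 718 (adjusted p 0.068 to 0.159), and with no filter on low counts (0.055). Kmo, kynurenine 3-monooxygenase (ENSMUSG00000039783, chromosome 1, 175620381 to 175662116), was at 32.3, 41.5 and 16.4 against 354, 389.5, 308 and 382 CPM (log2 fold change -3.57 with SE 0.44, edgeR adjusted p = 0.000188). Ccr7, the chemokine receptor for migration to lymph nodes, was at 61.6, 23.2 and 59.8 against 667, 475, 183 and 498 CPM (log2 fold change -3.24 with SE 0.52, edgeR adjusted p = 0.00117). Zbtb46, a transcription factor of the dendritic lineage, was at 2.38, 0.441 and 4.63 against 40.3, 32.0, 24.9 and 44.8 CPM (log2 fold change -3.82 with SE 0.81, edgeR adjusted p = 0.00828), and Dpp4, a surface peptidase, fell by 3.00 on the log2 scale (SE 0.60), though not without lipid-laden library 718 (adjusted p = 0.051). The list summed to 757 to 988 CPM in lipid-laden and 2315 to 4248 CPM in non-lipid-laden MDM. In lipid-laden microglia the sum was 485 to 723 CPM. Dendritic cell markers and class II genes were thus both lower in the lipid-laden group, but their order within the groups differed. Lipid-laden library 221 had the lowest dendritic sum (757 CPM) and the highest class II sum (23376 CPM) of its group. Non-lipid-laden library 431 likewise had the lowest dendritic sum (2315 CPM) and the highest class II sum (45549 CPM). A part of dendritic cells in the class II difference was not tested. The count of dendritic markers that fell was 4 without lipid-laden library 718 and 5 without lipid-laden library 224 or 221 or non-lipid-laden library 224 or 718, and 6 under DESeq2.

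The 12 largest decreases among well-expressed genes, by the rule for named genes, were led by cell adhesion and receptor genes that non-lipid-laden MDM expressed and microglia nearly lacked. Cdh1, the adhesion protein E-cadherin (ENSMUSG00000000303, chromosome 8, 106603351 to 106670246), was at 3.57, 13.0 and 8.503 against 181, 199, 269.7 and 129 CPM (log2 fold change -4.54 with SE 0.93, edgeR adjusted p = 0.0066) and at 0 to 2.61 CPM in lipid-laden microglia. Epcam, another epithelial adhesion molecule, was at 14.3, 5.18 and 11.6 against 158, 157, 143 and 131 CPM (log2 fold change -3.83 with SE 0.72, edgeR adjusted p = 0.00376). Klrd1, a lectin receptor of natural killer cells and of some dendritic cells, was at 9.41, 6.500 and 12.8 against 184, 107, 248 and 192 CPM (log2 fold change -4.25 with SE 0.55, edgeR adjusted p = 0.000585), and its relative Klri2 fell by 4.28 on the log2 scale, where reads shared within the Klr family were not set apart. Ramp3, a partner of the receptors for adrenomedullin and related peptides, was at 12.01, 12.4 and 9.64 against 166, 137, 131 and 164 CPM (log2 fold change -3.72 with SE 0.46, edgeR adjusted p = 0.000188). None of these values overlapped between the groups. Zbtb46, Ppp1r1a (-3.81), an inhibitor of protein phosphatase 1, and Ffar2 (-3.76), a receptor for short-chain fatty acids, fell as well. Vdr, the vitamin D receptor (-4.33, SE 1.04), the chemokine gene Ccl22 (-4.21, SE 1.23), the fusion gene Dcstamp (-4.09, SE 1.15) and the riboflavin transporter gene Slc52a3 (-3.96, SE 1.09) completed the set. The Vdr call was lost without lipid-laden library 224, 221 or 718 or non-lipid-laden library 431 (adjusted p 0.0577 to 0.0897). Ccl22 was not called without lipid-laden library 224, 221 or 718 or non-lipid-laden library 224, 221 or 718 (adjusted p 0.0858 to 0.133), under DESeq2 (0.157) and without number 221 in every group (0.131). Dcstamp was not called without lipid-laden library 224, 221 or 718 or non-lipid-laden library 224, 221, 431 or 718 (adjusted p 0.0631 to 0.125), under DESeq2 (0.0913) and without number 221 in every group (0.103). The call of Slc52a3 was lost without lipid-laden library 224 or 718 or non-lipid-laden library 224, 221, 431 or 718 (adjusted p 0.06 to 0.134). That of Ppp1r1a was lost without lipid-laden library 224 or 718 (adjusted p 0.0568 to 0.0643) and that of Ffar2 without lipid-laden library 221 (adjusted p = 0.058), and without number 221 in every group (0.0593). Among the most abundant genes that fell were Mdh2, the mitochondrial malate dehydrogenase, at 591, 797 and 501 against 1694, 1929, 1732 and 1583 CPM (log2 fold change -1.46 with SE 0.18, edgeR adjusted p = 0.000174), and Cnbp, a nucleic acid-binding protein (-0.55, SE 0.11).

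The 12 largest increases were mostly genes that non-lipid-laden MDM hardly expressed. The rule's minimum, a log2 CPM of 3, was an average over all 15 libraries, so microglial expression counted towards it. None of these genes, Lox included, was higher in all lipid-laden MDM libraries than in every other library of the series. Cntn1, a neural adhesion molecule (ENSMUSG00000055022, chromosome 15, 92051165 to 92341967), was at 22.7, 35.9 and 23.6 against 2.01, 1.17, 0.130 and 0.996 CPM (log2 fold change 4.62 with SE 0.62, edgeR adjusted p = 0.000326) and at 24.7 to 101 CPM in lipid-laden microglia. Ncan, the brain proteoglycan neurocan (ENSMUSG00000002341, chromosome 8, 70093085 to 70120873), was at 18.8, 39.4 and 37.8 against 3.93, 1.63, 0 and 0.725 CPM (log2 fold change 4.31 with SE 0.73, edgeR adjusted p = 0.00193) and at 21.0 to 89.7 CPM in lipid-laden microglia. Gpm6a, a neuronal membrane glycoprotein (4.29, SE 0.91), Igfbp2, a binding protein of insulin-like growth factors (4.54, SE 0.94), Tspan18, a tetraspanin (4.23, SE 0.62), and Tmem44 (5.26, SE 0.94) belonged to the same set. So did Fkbp14, a chaperone of collagen folding (4.76, SE 0.72), Cdk18, a protein kinase (4.46, SE 0.83), Plpp3, a lipid phosphatase (4.50, SE 1.15), and Col1a1, type I collagen (5.71, SE 1.43). Lox, the enzyme that crosslinks collagen, had 135 counts over the 3 lipid-laden libraries and 0 over the 4 others. With 3 counts assumed for the others in place of 0 it was 58.0-fold higher, and the lower 95% limit for counting error was 46.5-fold. Col1a1 was not called without lipid-laden library 718 or non-lipid-laden library 224, 431 or 718 (adjusted p 0.0587 to 0.0669), under limma-voom (0.257) and without number 221 in every group (0.055). Plpp3 was not called without lipid-laden library 224 or 718 or non-lipid-laden library 224, 431 or 718 (adjusted p 0.0504 to 0.0651), under limma-voom (0.0517) and in the fit of the 7 MDM libraries (0.0844). Retnlg, a gene of neutrophils, was at 256, 5.29 and 3.78 against 3.32, 1.75, 2.73 and 1.09 CPM, so that library 224 alone carried the increase (log2 fold change 5.31 with SE 1.47, edgeR adjusted p = 0.0363). Its adjusted p was 0.788 without that library, and the call was also lost without any 1 of the 4 non-lipid-laden libraries (adjusted p of at least 0.0778), under limma-voom (0.347) and without number 221 in every group (0.0572). The increases of Gpm6a, Igfbp2, Tmem44 and Cdk18 were not called under 1 or 2 other fits: Gpm6a under limma-voom (0.0529) and without number 221 in every group (0.0708), Igfbp2 under limma-voom (0.0726), Tmem44 under limma-voom (0.124) and Cdk18 in the fit of the 7 MDM libraries (0.0757).

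Markers of tumour, glial and other cells were read as lists in the same libraries. Of 18 glioma and progenitor genes 7 rose and none fell (median 3.22). With Cd24a, which dendritic cells share, set aside, the other 17 summed to 104 to 203 CPM in lipid-laden MDM, 18.3 to 32.1 CPM in non-lipid-laden MDM, 168 to 567.8 CPM in non-lipid-laden and 246 to 687 CPM in lipid-laden microglia. Pdgfra, the PDGF receptor of oligodendrocyte progenitors, was at 17.2, 35.6 and 18.0 against 6.14, 2.80, 0 and 0 CPM (log2 fold change 3.38 with SE 0.96, edgeR adjusted p = 0.042), Ptprz1, a phosphatase of progenitors, rose by 3.16 and Cspg4, the proteoglycan NG2, by 2.35. The Pdgfra call was lost without lipid-laden library 224, 221 or 718 or non-lipid-laden library 221, 431 or 718 (adjusted p 0.0659 to 0.119), under limma-voom (0.167), in the fit of the 7 MDM libraries (0.105) and without number 221 in every group (0.17). That of Ptprz1 was lost without lipid-laden library 718 or non-lipid-laden library 431 (adjusted p 0.056 to 0.11), under limma-voom (0.141) and in the fit of the 7 MDM libraries (0.0521). Cspg4 was not called without lipid-laden library 718 or non-lipid-laden library 224 (adjusted p 0.0573 to 0.0798), under limma-voom (0.0762) and in the fit of the 7 MDM libraries (0.126). The count of glioma and progenitor genes called higher was 2 without lipid-laden library 718, 3 without non-lipid-laden library 431 or under limma-voom, and 4 without lipid-laden library 221 or non-lipid-laden library 224 or 718. Astrocyte and endothelial genes gave 3 of 19 called higher, with Slc1a3, a glutamate transporter (2.19, SE 0.45), and myelin genes 1 of 9 tested, against 5.21% of all genes tested. The sums of both lists overlapped between the MDM groups. Astrocyte and endothelial genes summed to 138 to 282 CPM in lipid-laden and 69.6 to 262 CPM in non-lipid-laden MDM. Myelin genes summed to 171 to 231 and 221 to 253 CPM. Sox2 had 5 counts in lipid-laden and 0 in non-lipid-laden MDM. Of the defining myelin genes, Mog had 7 counts and 0, while Mbp averaged 36.9 CPM in lipid-laden and 54.5 CPM in non-lipid-laden MDM. Of 20 lymphocyte genes Cd79b, of the B cell receptor and also expressed in microglia here, rose (1.26, SE 0.25) and Klrd1 fell. The lymphocyte share called in either direction was near that of all genes tested (5.21% and 2.96%) and is not a result about the list. Cd3e, of the T cell receptor, was at 0 to 0.541 CPM in lipid-laden and 0 to 3.15 CPM in non-lipid-laden MDM.

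Neutrophil and mast cell genes were called higher in 2 of 11, S100a9 and Retnlg, against 5.21% of all genes tested. S100a9, a calprotectin subunit, had 264 counts over the lipid-laden libraries, at 24.1, 3.19 and 1.13 CPM in 224, 221 and 718, and 0 over the others. With 3 counts assumed for the others in place of 0 it was 113-fold higher, and the lower 95% limit for counting error was 91.5-fold. Library 224 held most of the S100a9 counts, and the call was lost without lipid-laden library 224 or non-lipid-laden library 224, 221, 431 or 718 (adjusted p 0.0562 to 0.108), and without number 221 in every group (0.0736). The defining neutrophil gene Ly6g was at 0 in all 15 libraries. Summed over the list, these genes came to 198 to 670.5 CPM in lipid-laden and 228 to 296 CPM in non-lipid-laden MDM, with overlapping groups. Cpa3, a mast cell protease, had 310 counts against 0 and was not called (edgeR adjusted p = 0.0839). The part of tumour, glial and granulocyte RNA in the other differences was not tested.

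Cell cycle genes rose in 20 of 30 and none fell (median 1.67). Ccnb1, cyclin B1, which drives entry into mitosis (ENSMUSG00000041431, chromosome 13, 100778650 to 100786570), was at 55.7, 123 and 76.1 against 7.05, 20.6, 14.8 and 11.7 CPM (log2 fold change 2.65 with SE 0.32, edgeR adjusted p = 0.000174). Cdc20, an activator of the ligase that ends mitosis, was at 78.9, 123 and 106 against 18.4, 35.6, 33.4 and 18.8 CPM (log2 fold change 1.95 with SE 0.29, edgeR adjusted p = 0.000808). The lowest lipid-laden value was above the highest non-lipid-laden value in both genes, and library 221 was highest in each group. Rrm2, a subunit of the enzyme that makes deoxynucleotides (1.78, SE 0.31), and Stmn1, a microtubule regulator (1.49, SE 0.22), rose too. The list summed to 2025 to 3012 CPM in lipid-laden MDM, 937 to 1513 CPM in non-lipid-laden MDM and 2915 to 3966 CPM in lipid-laden microglia. Serine synthesis genes Psat1 (2.04, SE 0.26) and Phgdh (1.51, SE 0.35) rose as well, where Phgdh was not called without lipid-laden library 221 or 718 (adjusted p 0.0505 to 0.0668), while the stress response genes Herpud1 (-1.03, SE 0.16) and Sesn2 (-1.08, SE 0.26) fell. The Sesn2 call was lost without lipid-laden library 224 or 221 (adjusted p 0.0592 to 0.0783). Of 22 genes of the unfolded protein and integrated stress responses 3 rose and 2 fell (median -0.04), against 5.21% and 2.96% of all genes tested.

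Over all genes tested 5.21% rose and 2.96% fell, the shares against which the next 3 lists stand. Among 24 macrophage and microglia transcription factor genes 5 rose and 3 fell (median 0.46). The related repressors Bhlhe40 and Bhlhe41 moved in opposite directions: Bhlhe40 was at 574, 299 and 341 against 1677, 1245, 1225 and 1397 CPM (log2 fold change -1.78 with SE 0.27, edgeR adjusted p = 0.000828) and Bhlhe41 at 127, 109 and 139 against 25.8, 15.9, 55.3 and 38.7 CPM (log2 fold change 1.88 with SE 0.30, edgeR adjusted p = 0.00122). The count that fell was 5 under DESeq2 and limma-voom and 1 without lipid-laden library 221 or 718 or non-lipid-laden library 431. Rxra, the partner of LXR and other nuclear receptors, rose by 1.46 (SE 0.29). Matrix and growth factor genes rose in 5 of 28 (median 0.64), with Timp2, an inhibitor of metalloproteinases, at 197, 182 and 198 against 28.1, 34.99, 58.9 and 35.1 CPM (log2 fold change 2.29 with SE 0.29, edgeR adjusted p = 0.000242). Mmp2, a gelatinase, was at 157, 85.3 and 101 against 14.9, 31.7, 25.6 and 31.3 CPM (log2 fold change 2.14 with SE 0.37, edgeR adjusted p = 0.00224). Pdgfb, the growth factor gene that also drives the tumour, was at 22.7, 34.7 and 42.4 against 14.3, 8.75, 24.3 and 16.4 CPM (log2 fold change 1.06 with SE 0.31, edgeR adjusted p = 0.043). That call was held in 6 of 16 alternative fits and was lost without lipid-laden library 221 or 718 or non-lipid-laden library 224, 221 or 718 (adjusted p 0.0804 to 0.187), with DESeq2 size factors (0.0508), under limma-voom (0.0804), in the fit of the 7 MDM libraries (0.114) and without number 221 in every group (0.11), and reads of the tumour's PDGFB construct were not set apart. Immediate early genes, which also rise when tissue is dissociated, fell in 3 of 23 (median -0.47): Btg2 (-1.40, SE 0.22), Btg1 (-0.98, SE 0.21), both inhibitors of cell proliferation, and the AP-1 gene Fosl2 (-1.05, SE 0.25). DESeq2 called 6 of them lower, and without lipid-laden library 718 1 was. The calls of Btg1 and Fosl2 were lost without lipid-laden library 718 (adjusted p = 0.0627) and without lipid-laden library 221 or 718 (adjusted p 0.0707 to 0.0779).

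Of 36 hypoxia and glycolysis genes 1 rose (2.78%) and 4 fell (11.1%), with a median of 0.10, against 5.21% and 2.96% of all genes tested. Ndrg1, a hypoxia-induced gene, was at 18.9, 29.4 and 25.7 against 75.0, 77.7, 94.99 and 106 CPM (log2 fold change -1.84 with SE 0.41, edgeR adjusted p = 0.0116), and was not called without lipid-laden library 224 (adjusted p = 0.0592). Bhlhe40, itself induced by hypoxia, and Ankrd37 (-1.13, SE 0.32) fell, and Pdk1, a kinase that restrains pyruvate oxidation, rose (0.75, SE 0.20). Ankrd37 was not called without lipid-laden library 224 or 718 or non-lipid-laden library 224, 221 or 718 (adjusted p 0.0724 to 0.15), with no filter on low counts (0.132), under limma-voom (0.0608), in the fit of the 7 MDM libraries (0.0964) and without number 221 in every group (0.0744). Pdk1 was not called without lipid-laden library 224, 221 or 718 or non-lipid-laden library 224 or 718 (adjusted p 0.0618 to 0.13), and in the fit of the 7 MDM libraries (0.0687). The list gave 0 higher and 1 lower without lipid-laden library 224, and 3 higher and 5 lower under DESeq2. In the 29 nuclear genes of oxidative phosphorylation edgeR made 0 calls (median -0.08), with 2 at an unadjusted p under 0.05, and among 10 mitochondrially encoded genes 0 calls (median 0.35), with 4. DESeq2 and limma-voom also made 0 calls in both lists, while edgeR called 1 mitochondrially encoded gene higher without lipid-laden library 224. The smallest edgeR adjusted p was 0.193, for Atp5e, and 0.0952, for mt-Nd4.

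**Figure D4:**
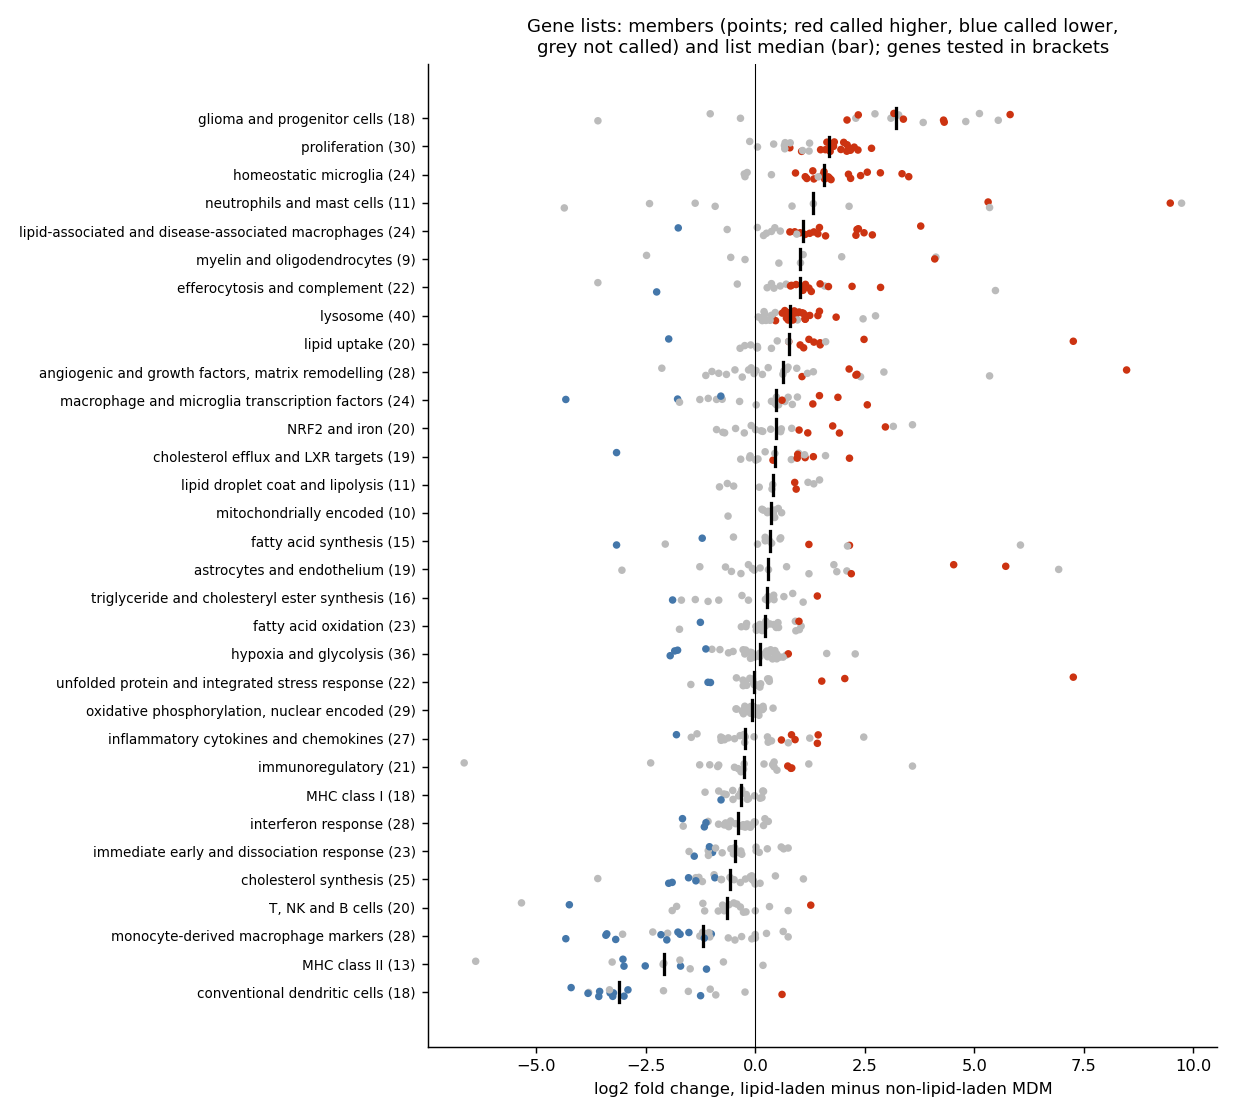
Each row is 1 of the 32 gene lists, with the number of genes tested in brackets. The horizontal axis is the log2 fold change of lipid-laden over non-lipid-laden MDM, points are genes (red called higher, blue called lower, grey not called) and the black bar is the list median, from 3.22 for glioma and progenitor genes to -3.12 for conventional dendritic cell genes.

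The 8 microglial libraries allow the same contrast in the other origin, with no library in common. Between lipid-laden and non-lipid-laden microglia edgeR called 0 of 14843 genes (0%), with 1367 at an unadjusted p under 0.05, while DESeq2 called 164, limma-voom 0, and edgeR 64 without lipid-laden microglial library 224 and 2 without non-lipid-laden microglial library 431 or 718. The difference of the effects, MDM minus microglia, was tested in the same fit and was called for 375 genes (2.53%), 237 with a larger value in MDM (1.6%) and 138 with a smaller one (0.93%). The count was 186 without lipid-laden MDM library 718, 245 without lipid-laden MDM library 224 and 231 without non-lipid-laden microglial library 224. Among homeostatic microglia genes 16 of 24 differed in this way, with a median effect of -0.32 in microglia against 1.57 in MDM. P2ry12 had an effect of -0.49 in microglia (difference 2.22, edgeR adjusted p = 0.0106) and Tmem119 one of -0.40 (difference 1.95, edgeR adjusted p = 0.0256). The Tmem119 difference was not called without non-lipid-laden microglial library 224 or lipid-laden MDM library 224 or 718 (adjusted p of up to 0.0818). Lysosomal genes had a median effect of 0.14 in microglia and 8 of 40 differed, Ctsb (0.92, edgeR adjusted p = 0.00406), Ctsl (1.15) and Cd63 (1.29) among them. Of 22 efferocytosis and complement genes 10 differed upward and 1 downward, with C1qc at 0.00 in microglia (difference 1.09, edgeR adjusted p = 0.00554).

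For the lipid genes the difference of effects was called in some and not in others. Trem2 had an effect of 0.01 in microglia (difference 1.32, edgeR adjusted p = 0.00474), Lpl one of 0.84 (difference 1.64, edgeR adjusted p = 0.0245) and Abca1 one of 0.22 (difference 1.10, edgeR adjusted p = 0.019). The Lpl difference was not called without non-lipid-laden library 224 of either origin or lipid-laden MDM library 221 or 718 (adjusted p of up to 0.0672), nor that of Abca1 without lipid-laden MDM library 224 or 718 (adjusted p of up to 0.0733). Plin2 had an effect of 0.53 in microglia (difference 0.37, edgeR adjusted p = 0.639), Gpnmb one of 1.99 (difference 0.68, edgeR adjusted p = 0.81) and Fabp5 one of 1.22 (difference -0.20, edgeR adjusted p = 0.831). The missing calls do not show that the effects are alike. Lgals3 had an effect of 1.43 in microglia and 0.25 in MDM, a difference that was not called (edgeR adjusted p = 0.131). Hypoxia and glycolysis genes had a median effect of 0.66 in microglia and 0.10 in MDM, and 7 of 36 differed, all with the smaller value in MDM. Ndrg1 (2.00 in microglia, difference -3.85, edgeR adjusted p = 0.00314) and Hilpda (1.27, difference -1.91, edgeR adjusted p = 0.00703) were examples. The cholesterol synthesis genes Pmvk (-1.40), Cyp51 (-1.36) and Srebf2 (-2.03) had differences below 0 that were called, as did Il1b (-1.11, edgeR adjusted p = 0.00928). The Cyp51 difference was not called without lipid-laden MDM library 224 or 718, lipid-laden microglial library 431 or 718 or non-lipid-laden microglial library 224 or 718 (adjusted p 0.0508 to 0.0905), or without number 221 in every group (0.0597). The Srebf2 difference was lost without any 1 of 13 of the 15 libraries (adjusted p 0.0512 to 0.121), with no filter on low counts (0.0587), under limma-voom (0.0855) and without number 221 in every group (0.148).

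**Figure D5:**
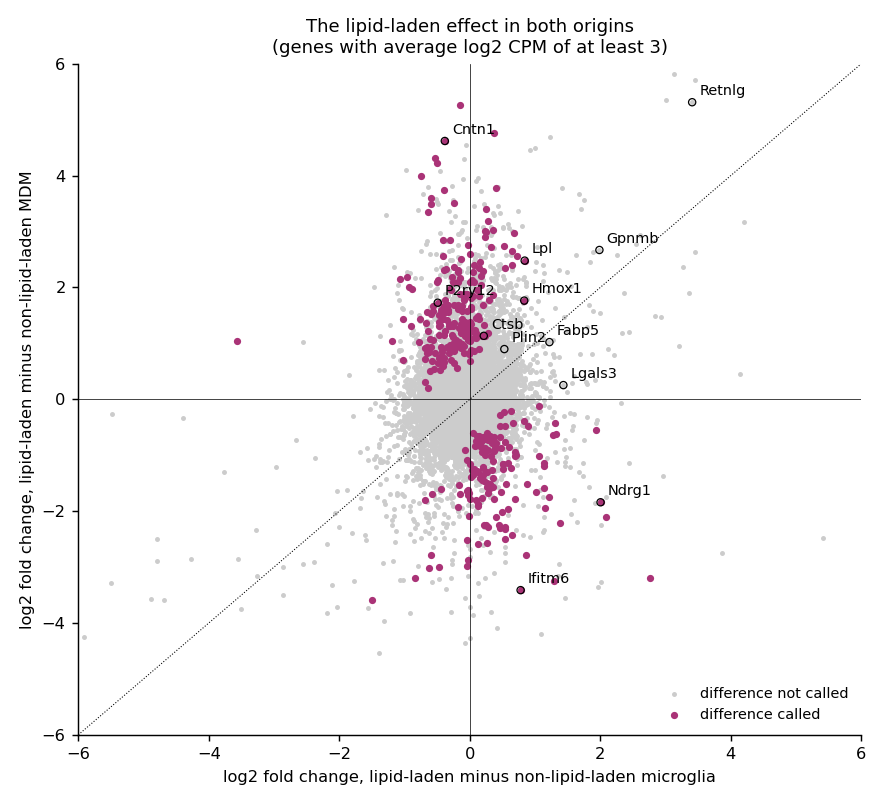
The horizontal axis is the log2 fold change of lipid-laden over non-lipid-laden microglia and the vertical axis the same for MDM, for 9354 genes whose log2 CPM averaged 3 or more, of which 8 lie outside the axes. Purple points are genes whose difference of effects was called, grey points the others, and the dotted line marks equal effects. Ctsb, Lpl and P2ry12 are purple, while the grey points of Gpnmb, Fabp5 and Plin2 lie above 0 on both.

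Lipid-laden MDM were also set beside lipid-laden microglia, a comparison that shares the 3 lipid-laden MDM libraries with the main one. It gave 413 calls (2.78%), 327 higher in MDM (2.2%) and 86 lower (0.579%), with 168 calls without lipid-laden MDM library 224, 261 without lipid-laden MDM library 718 and 243 without lipid-laden microglial library 431. Of the 28 MDM markers 13 were higher in lipid-laden MDM than in lipid-laden microglia, and Ccr2 differed by 5.85 (edgeR adjusted p = 0.000128). None of the 24 homeostatic microglia genes was called higher, and 3 were called lower. For Plin2 the log2 difference was 0.27, for Abca1 -0.01 and for Ctsb 0.15, none of them called (edgeR adjusted p = 0.684, 0.989 and 0.591). Lpl was lower in MDM, at 108, 187 and 155 against 349 to 563 CPM (log2 difference -1.62, edgeR adjusted p = 0.00392).

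Some genes were higher in all 3 lipid-laden MDM libraries than in the other 12, so that their level was above that of both non-lipid-laden MDM and microglia. There were 78 of them (0.526% of genes tested), 26 of which were called higher against non-lipid-laden MDM, and 36 genes (0.243%) lay below all other 12, 6 of them called lower. Mmp2, at 157, 85.3 and 101 CPM, had 46.5 to 84.6 CPM in non-lipid-laden and 19.8 to 72.9 CPM in lipid-laden microglia beside 14.9, 31.7, 25.6 and 31.3 CPM in non-lipid-laden MDM. Cbr2, a carbonyl reductase, was at 60.5, 47.9 and 61.4 CPM against 5.34, 4.20, 2.08 and 10.6 CPM (log2 fold change 3.33 with SE 0.59, edgeR adjusted p = 0.00256), with 10.502 to 47.0 CPM in lipid-laden microglia. Rapsn, which clusters acetylcholine receptors, was at 62.4, 33.6 and 54.6 against 19.0, 10.6, 10.3 and 17.2 CPM (log2 fold change 1.81 with SE 0.30, edgeR adjusted p = 0.00142), with 20.9 to 30.5 CPM in lipid-laden microglia. Adgb, a globin-like gene (log2 fold change 2.65 with SE 0.79, edgeR adjusted p = 0.0502), and Slc7a4, a relative of amino acid transporters (log2 fold change 1.86 with SE 0.56, edgeR adjusted p = 0.0506), were in the set without passing the test. Lamp1, a lysosomal membrane protein chosen after its values were seen, was at 2056, 1586 and 1706 against 999.5, 864, 583 and 889 CPM (log2 fold change 1.10 with SE 0.20, edgeR adjusted p = 0.00304), with 1021 to 1532 CPM in lipid-laden microglia.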

How the data were processed

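RNA was sequenced from sorted cells of mouse gliomas, and 15 libraries were analysed. The values are counts of reads per gene as deposited by the authors, on genome build mm10 per the submitters' processing notes. Libraries were primed with oligo-dT and made by template switching from low amounts of RNA, per the labels' protocols. No aligner, counter or strand setting is given in the sources used here. Overlapping and antisense genes could therefore not be separated. Total counts were 7798952 to 11419338 per MDM library, and 1 table entry named no gene and held 0 counts.

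Genes were kept with edgeR 4.0.16 (filterByExpr, minimum count 10, minimum total 15; R 4.3.3), scaled by TMM and tested with the quasi-likelihood F test over all 15 libraries in 4 groups, with Benjamini-Hochberg adjustment over 14843 genes and a threshold of 0.05. The standard error (SE) of a log2 fold change was its size divided by the square root of F. CPM values were scaled to the TMM-adjusted library size. The code was tested on simulated data. Alternatives were DESeq2 1.42.0, limma-voom (limma 3.58.1), DESeq2 size factors, other filters, fits of MDM libraries only, a block for the title number and leaving out each library. Leaving out number 221 was added after seeing the data. Members and the 32 lists were chosen with earlier results of these data known, and several lists share members. A list is described by its counts and median, with no test of its own.

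Genes were named by rule: the 12 largest changes in each direction among called genes whose log2 CPM averaged 3 or more, with the same direction in the 3 pairs of equal number; the 5 most abundant called genes per direction; a fixed set of lipid and origin genes; up to 4 genes of smallest p per list; the 5 largest differences of effect between origins per direction; and the 5 largest folds among genes above all other 12 libraries. Genes named beyond that rule, such as Lamp1, Ctsa, Ctsd, Atp6v1a, Pdgfra, Vldlr and Irf8, were chosen after their values were seen. So were some differences of effect, such as that of Hilpda, a gene the rule named only for the MDM comparison. A bound on a fold used 3 counts over the group, and intervals on ratios of counts cover counting error only. Gene positions are those of the deposited table (mm10), and 14701 of the genes tested had the same position in the GENCODE M21 annotation. Some members counted in the lists are not reported here by name.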

Additional observations from a re-analysis of the deposited data

Results flagged for a closer look

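In the 4 non-lipid-laden MDM libraries, 90 sets of values were searched for a library far from the other 3, and 8 were found. A chance rate of about 1 in 20 holds for independent, normally distributed values. Some sets here share genes, and a gene at 0 in 3 libraries is flagged for any count in the other. The 8 of 90 can therefore not be read against that rate. Library 221 stood apart for Plpp3 (0.933 CPM, with 0 in the others) and for the sum of nuclear oxidative phosphorylation genes (8047 CPM). Library 718 did so for Cdk18 (0.634 CPM, with 0 in the others) and Gpm6a (2.99 CPM). Library 224 was lowest for C1qc (1499 CPM). Library 431 was lowest for the sum of MDM markers (11627 CPM), for the sum of neutrophil and mast cell genes (228 CPM) and for genes detected (15127).

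The lipid-laden effect in MDM minus that in microglia was tested for 60 named genes, and 26 differences were called by edgeR, against 375 of 14843 genes tested (2.53%). Of the 60 genes 10 were named for having the largest called differences and others for their MDM effect, so the count of 26 is in part fixed by that choice. Positive differences on the log2 scale were found for Lox (7.16), Kynu (6.27), Tmem44 (5.41), Cntn1 (5.00), Ncan (4.85), Tspan18 (4.73), Fkbp14 (4.38), Mmp2 (2.63), P2ry12 (2.22), Tmem119 (1.95), Rapsn (1.80), Lpl (1.64), Trem2 (1.32), Abca1 (1.10), C1qc (1.09), Ctsb (0.92), C1qb (0.82) and Lgmn (0.80). Negative ones were found for Vdr (-11.35), Cyp7b1 (-5.96), an enzyme of oxysterol metabolism, Ppm1j (-4.54), AA467197 (-4.20), Ifitm6 (-4.19), Mdh2 (-1.68), Il1b (-1.11) and Gm2a (-0.84). Lox, Vdr and Kynu had 0 counts in 1 of the 4 groups, so their fitted differences depend on the prior count and are no bounds. The Kynu difference was lost without any 1 of 12 of the 15 libraries (edgeR adjusted p 0.0508 to 0.0704), under limma-voom (0.165) and without number 221 in every group (0.0964). The Cyp7b1 difference was lost without non-lipid-laden MDM library 224, lipid-laden MDM library 224, lipid-laden microglial library 431 or non-lipid-laden microglial library 718 (adjusted p 0.0517 to 0.0742), under limma-voom (0.0752) and without number 221 in every group (0.0732). The Tmem44 and Ppm1j differences were lost without lipid-laden MDM library 718 (adjusted p = 0.068 and 0.0646). The differences of Lox (adjusted p = 0.149), Tmem44 (0.226), Ifitm6 (0.111) and Ncan (0.0532) were not called under limma-voom. Without number 221 in every group those of Ncan (0.0851), Vdr (0.0557) and Gm2a (0.0683) were not called by edgeR. The Gm2a difference was also lost without library 224 of non-lipid-laden MDM, 718 of lipid-laden MDM or 718 of non-lipid-laden microglia (adjusted p 0.0517 to 0.0853). The Rapsn difference was lost without library 224 or 718 of lipid-laden MDM, 224 or 718 of non-lipid-laden microglia or 718 of lipid-laden microglia (adjusted p 0.053 to 0.0854).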

How the results depend on the processing

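Against 1213 calls between lipid-laden and non-lipid-laden MDM, DESeq2 gave 1982, and leaving out 1 library gave 657 to 1052, the lowest without lipid-laden library 718. Of the called genes, 63.7% were higher, against 48.8% under limma-voom, 48.4% in the fit of the 7 MDM libraries and 44.8% in the 3 pairs of equal number. For the difference of effects (375 calls) DESeq2 gave 960 and leaving out 1 library 186 to 452. For lipid-laden MDM against lipid-laden microglia (413) DESeq2 gave 798, of which 64.5% were higher against 79.2%, and leaving out 1 library 168 to 378, with 92.3% higher at the lowest. For microglia (0 calls) no filter gave 17, DESeq2 164 and leaving out 1 library 0 to 64. The cause of these shifts was not tested, and a fit with 1 library left out also has fewer libraries.

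The title number was added as a replicate block. Equal numbers correlated at 0.0560 (224), 0.123 (221) and 0.0272 (718) between MDM groups, and unequal numbers at -0.0767 to 0.0559. Non-lipid-laden libraries 224, 221 and 718 each correlated best with the lipid-laden library of equal number. Library 718 of lipid-laden MDM correlated best with non-lipid-laden library 431 (0.0559). Number 221 was lowest on the second principal component in every group. The labels do not explain the numbers, so the main fit did not pair the samples by them, and whether they pair the samples was not settled. The block gave 1529 calls for MDM, 657 for the difference, 569 for the lipid-laden groups and 119 for microglia. With it, S100a9 (adjusted p = 0.0549) and Retnlg (0.171) were not called by edgeR. Among hypoxia and glycolysis genes 8 were called higher and 4 lower, among immediate early genes 1 higher and 8 lower, and 2 mitochondrially encoded genes were called higher. In the 3 pairs of equal number with the block, hypoxia and glycolysis genes gave 3 higher and 3 lower, and immediate early genes 1 higher and 9 lower. In these pairs 0 mitochondrially encoded genes were called higher, and cytokine genes gave 8 higher and 5 lower. There the calls of Fkbp14 (0.0886), Cdk18 (0.095), Plpp3 (0.0959), Fabp5 (0.0616), Fads1 (0.0523), Entpd1 (0.08), Pdk1 (0.0593), Ankrd37 (0.106), Irf8 (0.104), Pdgfb (0.0593), Pdgfra (0.0833), Ptprz1 (0.07), Cspg4 (0.101) and Retnlg (0.0695) were not made. Of 130 called genes checked singly, 79 were called under every alternative run and 51 were lost under at least 1, most often without lipid-laden library 718 (35) or 224 (30). The difference of effects reversed sign for Fabp5 without number 221 (0.15) and for Gpnmb without non-lipid-laden microglial library 221 (-0.36), neither called. With each library left out in turn the Gpnmb difference was -0.36 to 1.23. With 3 libraries against 4 and a median SE of 0.30 for genes whose log2 CPM averaged 3 or more, small changes could not be detected.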
